A study of Mus musculus with 12 samples.

Results

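Malat1, Neat1, Kcnq1ot1 and Meg3 are long non-coding RNAs that stay in the nucleus. These 4 genes, of 57490 in the count table, were selected on measured values: they were proposed because Malat1 and Neat1 were higher in db/db than in db/m kidneys and higher again under treatment. Their levels in these mice are therefore given as a description, with no test. All 4 passed the filter on low counts, as did 17431 genes in all, and 1701 of the 11599 genes typed as lncRNA.

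Kidney RNA of 12 male mice, 13 weeks old, was measured by mRNA sequencing to follow diabetic nephropathy and its treatment with Yiqi Huoxue Yangyin Decoction (YHY). Ctrl was 4 db/m mice (the BKS heterozygote, db/+) given purified water. Model was 4 db/db mice, which carry Leprdb on the BKS background and lack a working leptin receptor, given purified water. YHY was 4 db/db mice that received the water extract at 6.24 g/mL, by daily gavage (50 µL for every 10 g) for 4 weeks. The sample labels name whole kidney and the series design names renal cortex. Libraries were made from RNA captured on oligo(dT), which binds runs of A.

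Malat1 gathers in nuclear speckles, stores of splicing factors beside active genes, and binds splicing proteins. Neat1 is the scaffold on which paraspeckles are built, bodies that hold back RNA and RNA-binding proteins. Kcnq1ot1 and Meg3 come from imprinted domains, where only the copy from a given parent is read: Kcnq1ot1 is made from the paternal copy and silences its neighbours, and Meg3 is made from the maternal copy. Malat1 and Neat1 are made in most cell types of the kidney.

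Total counts ran from 24415658 to 33276634 per mouse, and the group means ± SD were 32205938 ± 1737129 in Ctrl, 26662956 ± 2251642 in Model and 26586466 ± 2124104 in YHY (n = 4 each). Transcripts of the mitochondrial genome took 18.6%, 22.7%, 18.4% and 18.5% of the counts in Ctrl 1 to Ctrl 4. They took 41.2%, 58.9%, 55.3% and 53.4% in Model 1 to Model 4. They took 53.8%, 64.6%, 54.6% and 54.2% in YHY 1 to YHY 4. The share was higher in every db/db mouse than in every Ctrl mouse, lowest among db/db mice in Model 1 and highest in YHY 2. Its 95% Wilson intervals were at most 0.0396 percentage points wide, which covers counting error only. The group means were 19.5% ± 2.12, 52.2% ± 7.68 and 56.8% ± 5.21 (SD, n = 4). The means stepped up as those of Malat1 and Neat1 did, but Model 2 (58.9%) and Model 3 (55.3%) lay above YHY 1, YHY 3 and YHY 4, so the share overlapped between Model and YHY. Its part in the results below was not tested. The unit below is CPM, reads of a gene scaled to libraries of equal size, with TMM scaling, which sets libraries to each other through the bulk of the genes, unless another scale is named.

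Malat1 (ENSMUSG00000092341) and Neat1 (ENSMUSG00000092274) lie side by side on the minus strand of chromosome 19, with a gap of 22.0 kb, and the authors' table places them at chr19:5845717-5852704 and chr19:5874736-5895898. Kcnq1ot1 (ENSMUSG00000101609) lies at chr7:142757195-142850286 on the minus strand, within Kcnq1, which is read in the other direction. Meg3 (ENSMUSG00000021268) lies at chr12:109506879-109538165 on the plus strand. Per length, in FPKM averaged over the 12 mice, the order was Malat1 at 43.9, Neat1 at 22.9, Kcnq1ot1 at 0.107 and Meg3 at 0.0914. Malat1 ranked 750 and Neat1 ranked 1370 from the top of the 17431 genes tested. Kcnq1ot1 and Meg3 ranked 16809 and 16973, near the bottom, and their group means lay within each other's SD in every group. Mean counts per mouse were 7984 for Malat1, 12710 for Neat1, 244 for Kcnq1ot1 and 42.6 for Meg3. Meg3 rested on 6 to 87 reads a mouse and Kcnq1ot1 on 37 to 419, so counting noise weighs most on these.

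The gene counts do not separate the short, polyadenylated Neat1 isoform from the long isoform that builds paraspeckles. Frmd8os overlaps Neat1 on the opposite strand with a mean count of 2.83. The use of strand in the counting is not stated, so reads of Kcnq1ot1 and of Kcnq1 introns cannot be told apart by strand.

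Malat1 has no classical poly(A) tail. RNase P cuts off a small tRNA-like RNA at its 3′ end, and what remains ends in an A-rich tract that folds into a triple helix. The sequences show the longest run of A in the reference transcript of each of the next 3 genes, in capitals with 30 bases on each side, because oligo(dT) capture depends on such runs. They are from GENCODE vM21 (GRCm38), 5′ to 3′ on the minus strand, at chr19:5795958-5796029, chr19:5835904-5835970 and chr7:143226915-143227015.
Malat1: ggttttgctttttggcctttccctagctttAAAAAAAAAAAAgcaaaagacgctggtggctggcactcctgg
Neat1: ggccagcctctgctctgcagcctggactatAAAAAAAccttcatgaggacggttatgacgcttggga
Kcnq1ot1: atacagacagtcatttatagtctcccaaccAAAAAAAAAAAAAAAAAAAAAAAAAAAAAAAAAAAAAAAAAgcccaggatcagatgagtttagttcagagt
The run of 12 in Malat1 lies 298 bases from the annotated 3′ end, just before the tRNA-like part. The longest run was 7 in Neat1, 41 in Kcnq1ot1, which has 10 runs of at least 10, and 16 in the longest Meg3 transcript, against a median of 6 over 68537 mouse transcripts of at least 1000 bases. How far capture at these runs fed the counts was not tested.

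The core of the m6A consensus, GGACT, was counted on the sense strand of the same transcripts. Malat1 held 9 (1.29 per kb), Neat1 23 (1.11 per kb), Kcnq1ot1 80 (0.859 per kb) and Meg3 16 (1.10 per kb). All 4 densities lay between the quartiles over all these transcripts, 0.577 and 1.52 per kb.

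Promoter windows of 300 bases were at hand from RefSeq (GRCm38.p6) for 3 of the 4 genes and are shown because the members moved with the groups. Malat1 is at chr19:5802623-5802922 (minus strand), Kcnq1ot1 at chr7:143296498-143296797 (minus strand) and the upstream Meg3 start at chr12:109540746-109541045 (plus strand). Capitals mark motif letters on either strand.
Malat1: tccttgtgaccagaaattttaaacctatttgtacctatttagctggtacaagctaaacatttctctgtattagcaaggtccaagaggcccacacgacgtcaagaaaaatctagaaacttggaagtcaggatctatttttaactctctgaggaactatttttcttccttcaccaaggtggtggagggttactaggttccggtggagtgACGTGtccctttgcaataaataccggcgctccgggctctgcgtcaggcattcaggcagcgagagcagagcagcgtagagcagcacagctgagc
Kcnq1ot1: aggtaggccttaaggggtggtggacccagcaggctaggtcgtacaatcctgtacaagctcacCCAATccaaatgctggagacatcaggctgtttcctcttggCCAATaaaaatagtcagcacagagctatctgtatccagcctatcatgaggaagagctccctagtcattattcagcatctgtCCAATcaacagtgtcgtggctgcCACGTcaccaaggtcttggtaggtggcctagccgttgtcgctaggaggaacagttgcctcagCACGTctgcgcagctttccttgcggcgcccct
Meg3: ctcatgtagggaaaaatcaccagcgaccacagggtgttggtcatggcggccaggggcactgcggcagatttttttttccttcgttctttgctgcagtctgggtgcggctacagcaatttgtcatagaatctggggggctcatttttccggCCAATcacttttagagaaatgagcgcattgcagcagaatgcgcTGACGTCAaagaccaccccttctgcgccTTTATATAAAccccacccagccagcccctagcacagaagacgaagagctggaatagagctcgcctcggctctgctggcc
Both strands were searched for 8 motifs. Malat1 held ACGTG, the core of hypoxia-response elements and E-box-like sites, which 19.6% of all 32851 windows hold. Kcnq1ot1 held ACGTG and CCAAT, a letter run found in 37.4% of windows. The upstream Meg3 window held TGACGTCA (1.79% of windows), the cyclic AMP response element, which is known at this promoter. It also held TATAAA on both strands, overlapping (13.6% of windows), and a further CCAAT. The other Meg3 window, chr12:109545148-109545447, held none of the 8. The other motifs searched were in none of these windows: GGGCGG (a GC box, 35.7% of all windows), GCGTG (the other hypoxia core, 32.4%), the heat-shock site TTCNNGAA (8.52%) and the E-box CACGTG (7.15%), which also holds ACGTG. A match describes letters only.

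The first comparison, Model against Ctrl, asks what the diabetic state does to the kidney transcriptome. Malat1 and Neat1 were each about as much higher in db/db kidneys, with fitted log2 folds of 1.13 and 1.14. Kcnq1ot1 was 7.24-fold and Meg3 5.37-fold higher, from far lower levels. In every case but Meg3 all 4 Model mice lay above all 4 Ctrl mice.

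Malat1 was at 151, 136, 107 and 104 CPM in Ctrl 1 to Ctrl 4 and at 179.8, 406, 264 and 244 CPM in Model 1 to Model 4. Neat1 was at 212, 241, 196 and 189 CPM in the Ctrl mice and at 371, 626, 458 and 393 CPM in the Model mice. For both genes Model 2 was the highest and Model 1 the lowest Model mouse, and the groups did not overlap. With library size alone Model 4 was the lowest for Neat1, at 376 CPM beside 387 CPM in Model 1. Model 2 and Model 1 also had the highest and the lowest mitochondrial share of the group. The means were 125 ± 22.7 and 274 ± 95.5 CPM for Malat1, and 209 ± 22.9 and 462 ± 115 CPM for Neat1 (SD, n = 4). The log2 fold was 1.13 ± 0.22 (SE) for Malat1, higher than in 86.5% of tested genes, and 1.14 ± 0.19 for Neat1.

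Kcnq1ot1 was at 2.59, 1.15, 1.76 and 2.03 CPM in the Ctrl mice and at 6.31, 19.96, 12.6 and 16.2 CPM in the Model mice. Meg3 was at 0.480, 0.187, 0.343 and 0.410 CPM in the Ctrl mice and at 1.55, 3.91, 0.457 and 1.88 CPM in the Model mice. The Kcnq1ot1 groups did not overlap. The Meg3 groups did, because Model 3, with 10 reads, fell within the Ctrl range. The means were 1.88 ± 0.597 and 13.8 ± 5.81 CPM for Kcnq1ot1, and 0.355 ± 0.125 and 1.95 ± 1.44 CPM for Meg3 (SD, n = 4). The log2 fold was 2.86 ± 0.33 (SE) for Kcnq1ot1, higher than in 98.0% of tested genes, and 2.42 ± 0.59 for Meg3. Thus 3 of the 4 were higher without overlap, beside 3466 of 17431 tested genes (19.9%), and nothing is read from that count because this contrast chose them.

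**Figure D1:**
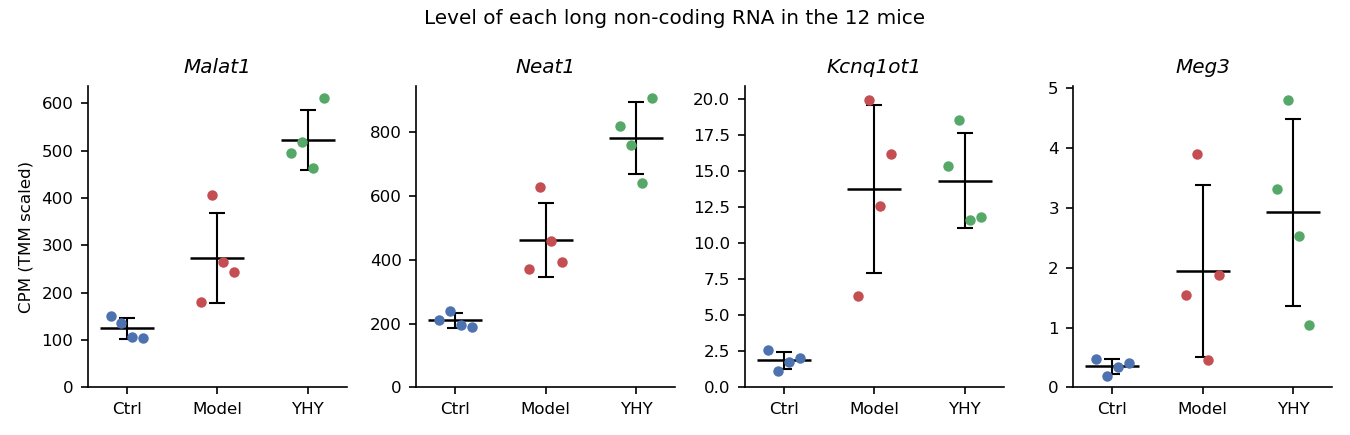
TMM-scaled CPM (vertical axes, each from 0) of Malat1, Neat1, Kcnq1ot1 and Meg3 in each mouse of the 3 groups, with points for mice and black lines for the group mean ± SD (n = 4). Malat1 and Neat1 step up from Ctrl to Model to YHY without overlap, while the Model and YHY mice of Kcnq1ot1 and Meg3 share a range.

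The size of the Model difference for Malat1 and Neat1 depended on how libraries were scaled, and its sign did not. With library size alone the log2 fold fell to 0.67 for Malat1 and 0.69 for Neat1. The Malat1 groups then overlapped narrowly, with Ctrl 1 at 189 and Model 1 at 188 CPM. Scaled to the total of nuclear-encoded counts it was 1.48 for both. The other genes moved with it: the median log2 fold of all tested genes was 0.04 with TMM, −0.39 with library size alone, 0.36 with nuclear-encoded counts and 0.14 with upper-quartile scaling. A scaling shifts all genes nearly alike, so the place of Malat1 and Neat1 among them is no check on their size.

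**Figure D2:**
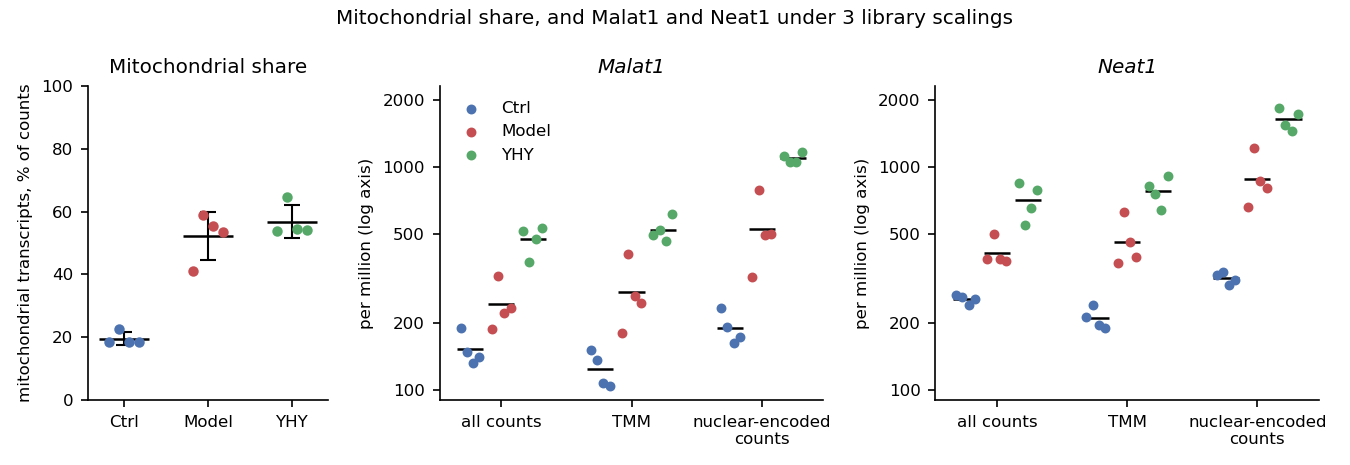
Mitochondrial share of counts in percent (left, mean ± SD, n = 4), and Malat1 and Neat1 CPM on log axes with 3 scalings of the libraries, with points for mice and black lines for group means. Model and YHY lie above Ctrl for both genes whichever scaling is used, except that Ctrl 1 (189) lies just above Model 1 (188) for Malat1 with all counts.

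Over all genes, the test called 3412 of 17431 (19.6%) up and 3219 (18.5%) down in Model against Ctrl at an adjusted P under 0.05 (edgeR quasi-likelihood test, Benjamini-Hochberg, no fold limit). Of the changed genes 51.5% were higher, against 77.5% (5555 higher, 1609 lower) with nuclear-encoded counts and 21.4% (1547 higher, 5667 lower) with library size alone. Among genes typed as lncRNA, 418 of 1701 (24.6%) rose and 63 (3.70%) fell with TMM, with a median log2 fold of 0.62. Among protein-coding genes, 2639 of 14217 rose and 3031 fell, with a median of −0.02. The lncRNA median was above 0 under each scaling, 0.18 with library size alone and 0.94 with nuclear-encoded counts, beside the shifts of all genes given above. With library size alone 246 lncRNAs rose and 112 fell.

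Speckle genes are those of the bodies where Malat1 gathers. This list, like the other gene lists here, was chosen with earlier results of these data known, so its counts are a description only. Of 35 genes for speckle and SR splicing factors, 17 rose (48.6%, against 19.6% of all tested genes). Of the rest 1 fell and 17 were not called, and the median log2 fold was 0.33. With library size alone 6 rose and 7 fell and the median was −0.10. All tested genes then had a median of −0.39, with 1547 higher and 5667 lower. Clk2, a kinase that releases SR proteins from speckles, rose from 11.1 ± 1.03 to 26.0 ± 4.21 CPM (log2 fold 1.23 ± 0.15, adjusted P = 3.1e-05, edgeR quasi-likelihood). Luc7l, of the U1 snRNP, rose from 28.6 ± 1.77 to 60.1 ± 10.8 CPM (log2 fold 1.07 ± 0.18, adjusted P = 0.00024). Son, a core protein of speckles, rose from 85.0 ± 2.04 to 176 ± 30.3 CPM (log2 fold 1.05 ± 0.20, adjusted P = 0.00067). For these 3 genes 4 of 4 Model mice lay above every Ctrl mouse. Srsf9, an SR protein, was the gene that fell, and its call was lost with nuclear-encoded counts. The count of 1 lower became 2 without Model 1, without YHY 4 or with only the 8 mice compared, and 3 with 9 mice (all but Ctrl 2, Model 1 and YHY 4).

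Paraspeckle proteins are the partners of Neat1. Of 26 genes 7 rose and 7 fell (26.9% each, against 19.6% and 18.5% of all tested genes), with a median log2 fold of −0.26 that became 0.05 with nuclear-encoded counts. The even split held with TMM only: 10 rose and 2 fell with nuclear-encoded counts, and 1 rose and 14 fell with library size alone. With only the 8 mice compared 11 fell. The count of 7 higher became 3 without Ctrl 3 or without Model 2. Nono, which binds Neat1 directly and is needed for paraspeckles, fell from 81.3 ± 7.96 to 48.9 ± 7.25 CPM (log2 fold −0.73 ± 0.14, adjusted P = 0.00067, lower in 4 of 4 mice). Its partner Sfpq fell from 81.3 ± 13.9 to 52.5 ± 5.35 CPM (log2 fold −0.63 ± 0.19, adjusted P = 0.015, lower in 4 of 4 mice), a call lost without Model 4 and with nuclear-encoded counts. The related Pspc1 was at 9.30 ± 2.39 and 7.38 ± 0.846 CPM and did not pass the test. Cirbp, a cold-inducible RNA-binding protein of the same list, rose from 15.7 ± 4.75 to 40.4 ± 2.28 CPM (log2 fold 1.36 ± 0.19, adjusted P = 6.5e-05, higher in 4 of 4 mice). So the message of the core partner Nono was lower in Model, and that of Sfpq was lower with the limits given. Neat1 was chosen for being higher there, so nothing is read from the contrast.

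The counts for the making, marking and decay of nuclear RNA hung on the scaling, and nothing particular to these lists is read from them. Of 11 subunits of RNase P and RNase Z, which trim the Malat1 3′ end, 3 rose (27.3%) and 4 fell (36.4%), with a median log2 fold of −0.27 that became 0.06 with nuclear-encoded counts. With these counts 4 rose and none fell, and with library size alone none rose and 6 fell. The 4 lower became 2 without Ctrl 2, without Model 2 or without Model 4. Of 19 tested genes of the nuclear exosome, which degrades RNA in the nucleus, 5 rose and 5 fell (26.3% each), with a median of 0.20 that became −0.23 with library size alone. With library size alone 1 rose and 7 fell, and with nuclear-encoded counts 9 rose and 1 fell. The 5 higher became 3 without Ctrl 3, without Model 2 or with no filter. Zcchc7, of the complex that feeds RNA to the exosome, rose from 14.1 ± 1.41 to 61.1 ± 22.1 CPM (log2 fold 2.12 ± 0.23, adjusted P = 1.1e-05, higher in 4 of 4 mice). C1d, an exosome cofactor, fell from 56.9 ± 6.40 to 23.5 ± 4.66 CPM (log2 fold −1.28 ± 0.16, adjusted P = 3.9e-05, lower in 4 of 4 mice). Both directions held under every scaling.

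Of 11 proteins that bind Malat1 or Neat1 or write and read m6A, 2 rose (18.2%) and 5 fell (45.5%), with a median of −0.30 that became 0.03 with nuclear-encoded counts. With these counts 2 rose and 3 fell, and with library size alone none rose and 7 fell. The 2 higher became 1 without Ctrl 1, Ctrl 3, Ctrl 4 or Model 1 or with no filter. Mettl16, which binds the Malat1 triple helix, fell from 22.2 ± 2.03 to 12.5 ± 2.16 CPM (log2 fold −0.83 ± 0.17, adjusted P = 0.0013, lower in 4 of 4 mice). Elavl1, which binds AU-rich RNA, fell from 44.2 ± 2.40 to 21.8 ± 3.22 CPM (log2 fold −1.02 ± 0.14, adjusted P = 5.2e-05, lower in 4 of 4 mice).

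The other long non-coding RNAs are set beside all tested lncRNAs, of which 24.6% rose. Of 11 tested among 16 further nuclear lncRNAs, 3 rose (27.3%: Firre, Chaserr and Snhg11) and 1 fell (Airn), with a median of 0.52. Without Model 3, and with library size alone, 2 fell, and 7 rose with nuclear-encoded counts and 5 with upper-quartile scaling. Firre, which holds chromosome regions together in the nucleus, rose from 23.4 ± 4.29 to 61.1 ± 8.59 CPM (log2 fold 1.39 ± 0.19, adjusted P = 7.1e-05, higher in 4 of 4 mice). Airn, which like Kcnq1ot1 is a paternal imprinted antisense RNA, fell from 13.9 ± 6.45 to 4.11 ± 1.33 CPM (log2 fold −1.75 ± 0.36, adjusted P = 0.0014, lower in 4 of 4 mice). Of 18 tested snoRNA hosts and cytoplasmic lncRNAs, 9 rose and 1, Norad, fell, with a median of 0.59. Without Ctrl 1 5 rose, and with library size alone 4 rose and 3 fell. Snhg12 rose to 19.2 ± 5.29 CPM in Model (log2 fold 1.83 ± 0.21, adjusted P = 1.6e-05, higher in 4 of 4 mice).

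**Figure D3:**
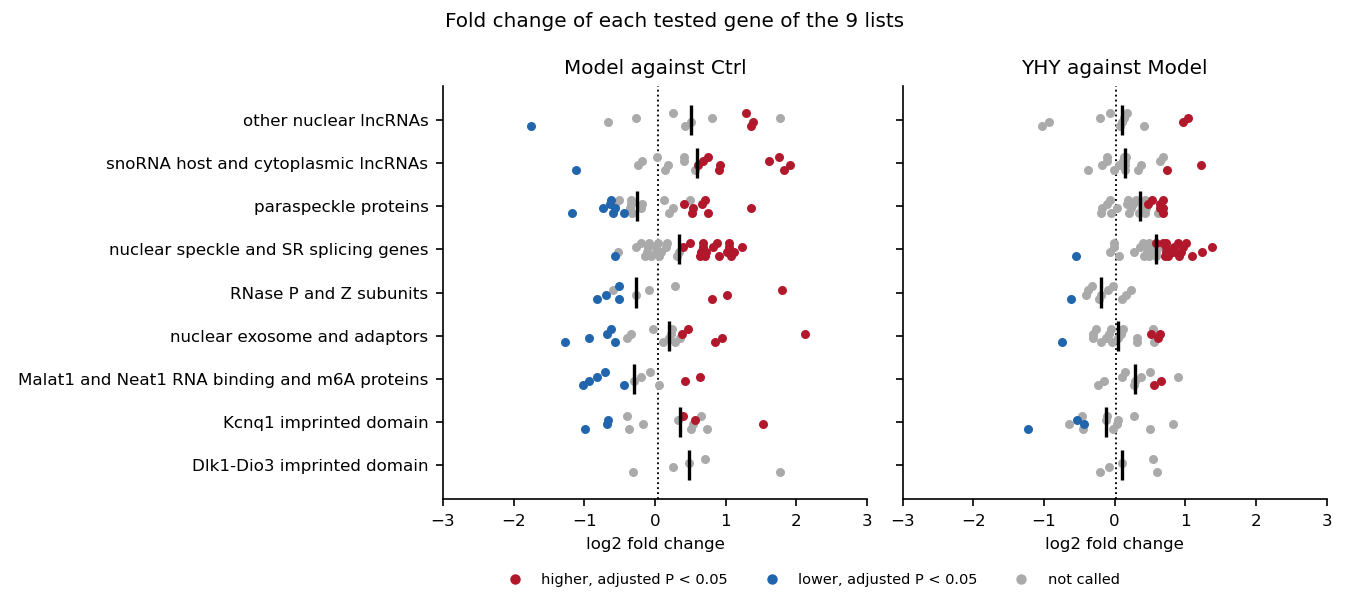
Log2 fold change (horizontal axes) of each tested gene of 9 lists, with the diabetic step on the left and the treatment step on the right, with red and blue points for genes called higher and lower, thick bars for list medians and dotted lines for the median of all tested genes. The speckle medians lie to the right of the dotted lines with TMM scaling (0.33 and 0.59). With library size alone the speckle median in Model is −0.10, beside −0.39 for all tested genes.

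Around Kcnq1ot1, the gene it overlaps was at 23.3 ± 7.44 CPM in Ctrl and 17.6 ± 5.15 CPM in Model: Kcnq1, a potassium channel, did not pass the test (log2 fold −0.40 ± 0.23, adjusted P = 0.18). Of 14 tested genes of its imprinted domain 3 rose and 3 fell (21.4% each, against 19.6% and 18.5% of all tested genes). The median log2 fold was 0.36 and became −0.07 with library size alone, and 1 rose without Ctrl 3. With library size alone 1 rose and 6 fell, and with nuclear-encoded counts 6 rose and 1 fell. With only the 8 mice compared 5 rose. Cdkn1c, a cell cycle inhibitor that Kcnq1ot1 silences on the paternal copy, rose from 15.04 ± 2.78 to 43.4 ± 9.90 CPM (log2 fold 1.53 ± 0.22, adjusted P = 7.9e-05, higher in 4 of 4 mice). Phlda2, also silenced there, fell from 21.1 ± 3.96 to 10.5 ± 2.77 CPM (log2 fold −0.996 ± 0.20, adjusted P = 0.0013, lower in 4 of 4 mice). Cdkn1c and Phlda2 thus went opposite ways, and a link of either to the Kcnq1ot1 level was not tested. Around Meg3, 5 of 8 genes of its domain were tested and 0 rose or fell by edgeR, where 1 was higher at an unadjusted P under 0.05 and 1 by DESeq2. In the edgeR test 1 rose without Ctrl 3, 1 rose and 1 fell without Model 1, 2 rose with nuclear-encoded counts, 1 rose with upper-quartile scaling or no filter, and 1 fell with library size alone or with 9 mice. Rian, the next maternal RNA, was at 0.323 ± 0.276 CPM in Ctrl and 1.13 ± 1.02 CPM in Model, and Dlk1, read from the paternal copy, was at 0.270 ± 0.103 and 0.323 ± 0.189 CPM.

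The next comparison, YHY against Model, asks what treatment did in db/db mice. Malat1 and Neat1 were higher again, 1.91-fold and 1.69-fold, and so moved further from Ctrl. Kcnq1ot1 had a fitted fold of 1.04. For Meg3 it was 1.50, with wide spread and a size that hung on single mice.

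Malat1 was at 496, 518, 464 and 611 CPM in YHY 1 to YHY 4, and Neat1 was at 818, 758, 639.6 and 908 CPM. Every YHY mouse lay above every Model mouse for both genes, although the gap for Neat1 was narrow, from 626 CPM in Model 2 to 639.6 CPM in YHY 3. With library size alone YHY 2 was the lowest treated mouse for Malat1 (373 CPM) and Neat1 (545 CPM). YHY 1 was the highest for Neat1 with that scaling (847 CPM) and with nuclear-encoded counts (1836 CPM). With TMM YHY 4 was the highest and YHY 3 the lowest treated mouse for both, while the mitochondrial share was highest in YHY 2. The means were 522 ± 63.2 CPM for Malat1 and 781 ± 112 CPM for Neat1 (SD, n = 4). The log2 fold was 0.93 ± 0.22 (SE) for Malat1, higher than in 93.6% of tested genes, and 0.76 ± 0.19 for Neat1, higher than in 89.8%.

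Kcnq1ot1 was at 15.4, 18.6, 11.6 and 11.8 CPM in the YHY mice, and Meg3 was at 3.32, 4.81, 2.53 and 1.05 CPM. Both groups overlapped with the Model mice, Meg3 in part: YHY 2 lay above every Model mouse and Model 3 below every YHY mouse. The means were 14.3 ± 3.32 CPM for Kcnq1ot1 and 2.93 ± 1.57 CPM for Meg3 (SD, n = 4). The log2 fold was 0.06 ± 0.30 (SE) for Kcnq1ot1, which turned to −0.18 without Model 1 and to −0.09 without YHY 2, and 0.58 ± 0.55 for Meg3, which became 0.24 without YHY 2, 0.26 without Model 3 and 1.16 without Model 2. Without overlap 2 of the 4 were higher, beside 1190 of 17431 tested genes (6.83%), a count from which nothing is read for the same reason as above.

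Fewer genes changed in this step than in the first: 982 of 17431 (5.63%) went up and 1329 (7.62%) down under YHY (edgeR quasi-likelihood, adjusted P under 0.05). These counts leaned on single Model mice, with 634 higher without Model 1, 600 without Model 4, and 419 higher and 727 lower without Model 3. With nuclear-encoded counts 64.5% of the changed genes were higher (1509 higher, 830 lower) against 42.5% with TMM, and the median log2 fold of all genes went from 0.02 to 0.16. Among lncRNAs 35 of 1701 rose and 42 fell, with a median of 0.07. These became 10 and 25 without Model 3, 18 higher without Model 4, and 64 lower without YHY 4.

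Under treatment, of the 35 speckle genes 17 rose (48.6%, against 5.63% of all tested genes), 1 fell and 17 were not called. The median log2 fold was 0.59 with TMM and 0.63 with library size alone, and 11 rose without Model 3. As above, these counts only describe a list that was chosen with earlier results of these data known. Of the 35 genes 11 rose in both steps. The share of all tested genes that did so was not worked out, so nothing is read from this count. Luc7l2, of the U1 snRNP, rose from 59.5 ± 4.40 to 140.4 ± 37.6 CPM (log2 fold 1.24 ± 0.18, adjusted P = 0.00069, edgeR quasi-likelihood). Srrm2, with Son the core of speckles, rose from 46.7 ± 10.8 to 121 ± 43.4 CPM (log2 fold 1.38 ± 0.23, adjusted P = 0.0020) and had not risen in Model. Rbm25, a splicing regulator, rose from 75.1 ± 3.57 to 145 ± 39.8 CPM (log2 fold 0.95 ± 0.17, adjusted P = 0.0034). Clk2 rose further to 44.1 ± 5.87 CPM (log2 fold 0.76 ± 0.15, adjusted P = 0.0052). For these 4 genes 4 of 4 YHY mice lay above every Model mouse. Srsf9 fell again, to 17.1 ± 2.74 CPM (log2 fold −0.55 ± 0.14, adjusted P = 0.016, lower in 4 of 4 mice), a call lost with nuclear-encoded counts, with library size alone and with only the 8 mice compared.

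**Figure D4:**
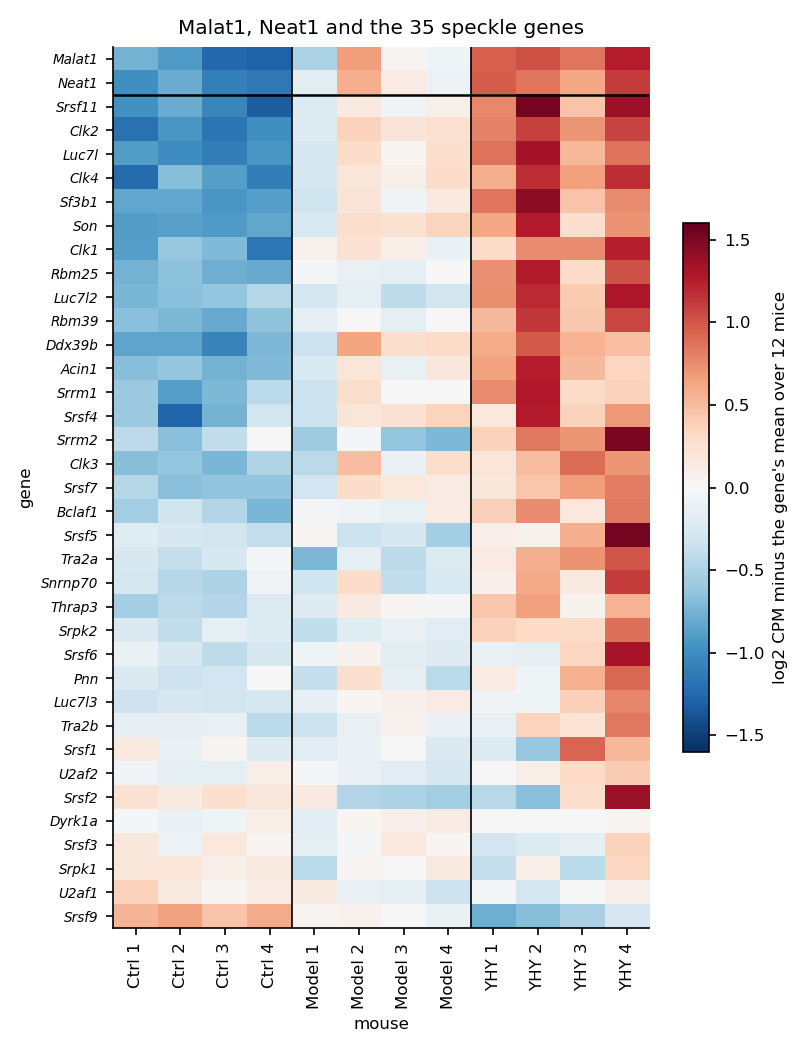
Log2 TMM-scaled CPM of Malat1, Neat1 and 35 speckle and splicing genes, each minus its mean over the 12 mice, with a column per mouse and red for values above the mean, ordered below the line by fold in YHY against Ctrl. Most speckle genes are blue in Ctrl and red in YHY as Malat1 and Neat1 are, with Srsf9 at the bottom the other way. With library size alone the median log2 fold of the list in Model against Ctrl is −0.10, beside −0.39 for all tested genes.

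Of the 26 paraspeckle genes 7 rose under treatment (26.9%, against 5.63% of all tested genes), with a median log2 fold of 0.36. By edgeR 0 fell (against 7.62% of all tested genes), where 0 were lower at an unadjusted P under 0.05 and 0 by DESeq2. With library size alone 4 rose. Hnrnpm, a splicing regulator, rose from 20.8 ± 1.87 to 33.5 ± 5.52 CPM (log2 fold 0.69 ± 0.15, adjusted P = 0.0075, higher in 4 of 4 mice), after a fall in Model. Cpsf7, of the cleavage factor that sets the Neat1 isoform, rose from 43.8 ± 1.71 to 68.1 ± 11.4 CPM (log2 fold 0.64 ± 0.13, adjusted P = 0.0068, higher in 4 of 4 mice). Nono, at 56.2 ± 3.17 CPM, and Sfpq, at 59.2 ± 16.4 CPM, did not pass the test. Both means lay above those of Model, and whether their folds differ from that of Neat1 was not tested.

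In the remaining lists the counts were small and most hung on single mice or on the scaling, so nothing is read from their shares, which stand beside 5.63% higher and 7.62% lower among all tested genes. Of 11 other nuclear lncRNAs 2 rose (18.2%), Firre and Ftx, with a median of 0.11, and 1 fell without YHY 4 or with no filter. Firre went on to 126 ± 32.8 CPM (log2 fold 1.04 ± 0.19, adjusted P = 0.0035, higher in 4 of 4 mice) and was the lncRNA of that list that rose in both steps, while Ftx, an activator of Xist, lost its call without any of 10 of the mice, with library size alone, with only the 8 mice compared and with 9 mice (all but Ctrl 2, Model 1 and YHY 4). Among 18 snoRNA hosts and cytoplasmic lncRNAs 2 rose (11.1%), with a median of 0.14. Of them Snhg16 lost its call without Ctrl 3, any Model mouse, YHY 2 or YHY 4, with library size alone, with no filter or with 9 mice, and 1 gene fell without YHY 3. Of 19 exosome genes 3 rose (15.8%) and 1 fell (5.26%), with a median of 0.05. Without Model 1, without Model 3 or with library size alone 1 rose, and with library size alone none fell. Of 11 RNase P and Z subunits 1 fell (9.09%), with a median of −0.20, and none did without Model 4, with nuclear-encoded counts, with library size alone, with only the 8 mice compared or with 9 mice. Of 11 binding and m6A proteins 2 rose (18.2%), with a median of 0.29, and 1 rose with only the 8 mice compared, with 9 mice and without any of the 4 Ctrl mice, Model 2, Model 3, Model 4, YHY 1 or YHY 4, while 6 rose with nuclear-encoded counts and none with library size alone.

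In the Kcnq1 domain 3 of 14 genes fell (21.4%), with a median of −0.12 that became 0.03 with nuclear-encoded counts, and 1 fell without Model 3, Model 4 or YHY 1, with nuclear-encoded counts, with library size alone, with only the 8 mice compared or with 9 mice. Without YHY 4 1 rose. Phlda2 fell further to 4.49 ± 0.785 CPM (log2 fold −1.23 ± 0.21, adjusted P = 0.0022, lower in 4 of 4 mice). Kcnq1 itself was at 18.0 ± 2.28 CPM, with a log2 fold of 0.03, beside a Kcnq1ot1 log2 fold of 0.06. In the Dlk1-Dio3 domain 0 of 5 genes were called by edgeR, 0 at an unadjusted P under 0.05 and 0 by DESeq2, and the median was 0.11.

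YHY against Ctrl shares its mice with both comparisons above and sums the steps. Every YHY mouse lay above every Ctrl mouse for all 4 genes, beside 3819 of 17431 tested genes (21.9%), and again nothing is read from this. The log2 fold was 2.07 ± 0.23 (SE) for Malat1, 1.90 ± 0.19 for Neat1, 2.92 ± 0.33 for Kcnq1ot1 and 3.01 ± 0.60 for Meg3. For Malat1 and Neat1 every Model mouse stood between the outer groups. On the log scale the Model means lay near the middle, but single mice spread widely, from 180 to 406 CPM for Malat1. Kcnq1ot1 had overlapping Model and YHY mice. Over all genes 4547 (26.1%) were higher and 4215 (24.2%) lower by edgeR, and 51.9% of them were higher, against 77.6% with nuclear-encoded counts (7406 higher, 2140 lower) and 28.4% with library size alone (2365 higher, 5977 lower). The median of all genes was 0.10, 0.57, −0.33 and, with upper-quartile scaling, 0.22. Of the speckle genes 27 rose and 1 fell, with a median of 1.07, and 4 fell with library size alone and 3 with 9 mice. Of the paraspeckle genes 9 rose and 4 fell, with a median of 0.11 that became −0.32 with library size alone. The balance of these calls turned with the scaling: 4 rose and 8 fell with library size alone, and 16 rose and none fell with nuclear-encoded counts.

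The ratio of Malat1 to Neat1 overlapped between the groups. Per length, Malat1 was 1.80 ± 0.237 times Neat1 in Ctrl, 1.77 ± 0.218 times in Model and 2.04 ± 0.151 times in YHY (SD, n = 4), with ranges that overlapped. Over the 12 mice their centred log2 CPM differed by a root mean square of 0.169. Every other pair of the 4 genes differed by 0.747 to 0.902. Malat1 and Neat1 were chosen for the same steps in these mice, so nothing is read from their nearness.

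Of 11442 named genes averaging 100 counts or more (11443 for Meg3), the nearest in pattern are named by the same measure, leaving aside that the selection makes Malat1 and Neat1 alike. After Neat1, the genes most like Malat1 were Clk2 (0.239), Med12 (0.245), Kmt2a (0.247) and Ripor3 (0.247), against a median of 1.00 over all genes. After Malat1, those most like Neat1 were Clk2 (0.173), Morc3 (0.180), Akap8 (0.181) and Ip6k2 (0.183), against a median of 0.918. Clk2 is the speckle kinase, Kmt2a a histone methyltransferase, Med12 a Mediator subunit and Akap8 a nuclear anchoring protein. Malat1 and Neat1 were chosen for their steps in these same mice, so any gene with steps of like size comes out near. Nothing is read from which genes these are. The genes most like Kcnq1ot1 were Map3k6 (0.406), Tarm1 (0.411) and Hoxc8 (0.412), and those most like Meg3 were Spred3 (0.580) and Plekhn1 (0.608). These values grow with the size of the fold and with counting noise, so they are not compared between members. By Pearson correlation the nearest gene was at 0.978 for Kcnq1ot1 (Eif2ak4) and 0.969 for Meg3 (Zeb1), beside 0.978 for Neat1 with Clk2 and 0.974 for Malat1 with Abcc10. By that correlation all 5 of the nearest genes recurred for Neat1, 1 of 5 for Malat1 and 0 of 5 for the others.

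The genes around the members were tested in both steps, and their counts are to be read beside the shares of all tested genes: 19.6% higher and 18.5% lower in the first step, 5.63% and 7.62% in the second. Of 25 tested genes other than Neat1 within 250 kb of Malat1, 7 rose and 1 fell in Model against Ctrl, and the median log2 fold with Neat1 counted in was 0.08. In YHY against Model 1 rose, and this gene, Kat5 (adjusted P = 0.049, log2 fold 0.63 ± 0.20), lost its call with library size alone, with only the 8 mice compared and on leaving out any mouse but Ctrl 2 or YHY 4. Of 28 tested genes other than Malat1 within 250 kb of Neat1, 8 rose and 3 fell in the first step, and 2 rose and 2 fell in the second. Frmd8, the nearest tested gene at 3.83 kb from Neat1, fell in Model (log2 fold −0.56 ± 0.16, adjusted P = 0.013), with its call lost under nuclear-encoded counts. Ltbp3, which binds latent TGF-beta, lies 37.2 kb from Malat1 and rose (log2 fold 0.81 ± 0.17, adjusted P = 0.0015), with its call lost under library size alone. Of 8 tested genes within 250 kb of Kcnq1ot1, 2 rose and 2 fell in Model. In the second step 0 rose and 2 fell by edgeR, Phlda2 and Tssc4 (adjusted P = 0.046, log2 fold −0.43 ± 0.14 for Tssc4). Near Meg3, Rian and Dlk1 were tested.

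**Figure D5:**
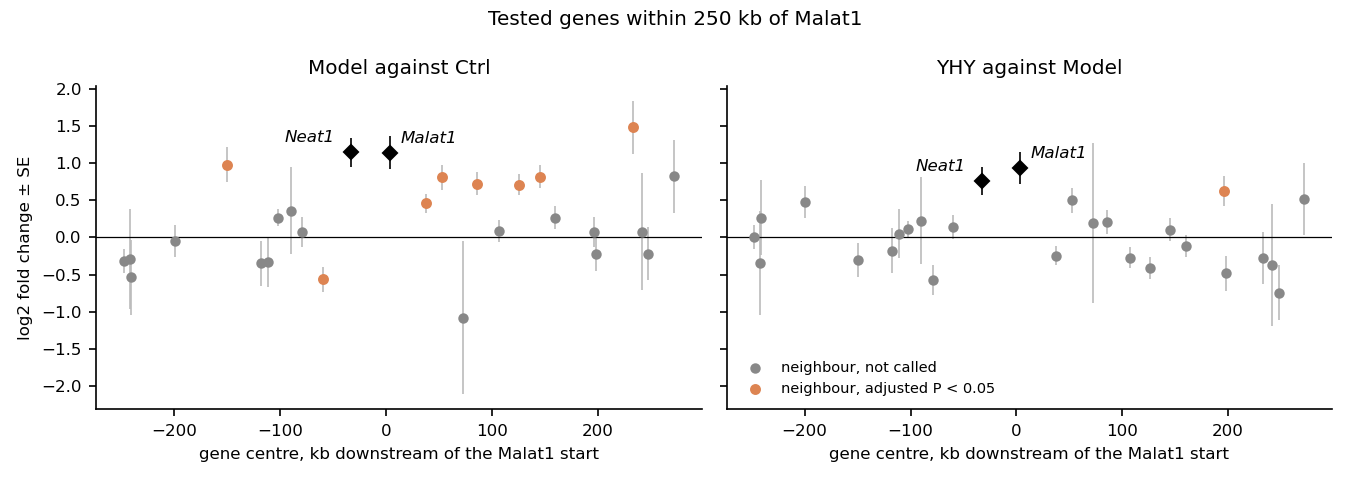
Log2 fold change ± SE of each tested gene whose nearer end lies within 250 kb of Malat1, against the distance of its centre from the Malat1 start in kb, for Model against Ctrl and YHY against Model, with black diamonds for Malat1 and Neat1 and orange for neighbours called by edgeR. Malat1 (0.93) and Neat1 (0.76) were chosen for being higher under treatment, so their height against the neighbours is not a finding. Genes on each side lie both above and below 0, although Frmd8, below 0 in Model, loses its call with nuclear-encoded counts.

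Markers of kidney cell types were present, as the tissue label says. In bulk samples fewer cells of a type and less RNA per cell cannot be told apart. Summed CPM of 4 collecting duct markers, led by Aqp2, was 850, 527, 578 and 1370 in the Ctrl mice, 538, 336, 423 and 391 in the Model mice and 575, 197, 351 and 178 in the YHY mice. Aqp2 fell in Model (log2 fold −1.18 ± 0.42, adjusted P = 0.035). That call was lost with nuclear-encoded counts, with upper-quartile scaling, by DESeq2, and without Ctrl 1, Ctrl 4, Model 2, Model 3 or Model 4. Aqp3 also fell in Model, from 77.1 to 23.4 CPM (log2 fold −1.72 ± 0.30, adjusted P = 0.00039, edgeR quasi-likelihood). Summed CPM of 5 proximal tubule markers, led by Slc27a2, was 5772, 7396, 6497 and 4914 in Ctrl, 4419, 4979.6, 5227 and 4193 in Model and 2731, 4807, 3485 and 5412 in YHY. Of these Lrp2 (log2 fold −1.68 ± 0.29, adjusted P = 0.0004) and Slc27a2 (log2 fold −0.53 ± 0.18, adjusted P = 0.033) fell in Model by edgeR. Both sums averaged lower in db/db mice, with overlap between the groups. Single genes went against the sum in Model, and none of these was called. Among them were Slc34a1 (0.06), Slc5a2 (0.42) and Slc5a12 (0.79) of the proximal tubule and Atp6v1g3 (0.22) of the collecting duct. Under treatment Atp6v1g3 went with the sum: it fell in YHY against Model (log2 fold −1.13 ± 0.23, adjusted P = 0.0057, edgeR quasi-likelihood). In YHY against Ctrl 1 of the 5 proximal tubule markers rose and 2 fell, Lrp2 and Slc27a2. The gene that rose, against the sum, was Slc5a12 (log2 fold 2.11 ± 0.80, adjusted P = 0.036, edgeR quasi-likelihood).

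The next lists averaged higher from group to group. Summed CPM of 4 fibroblast and mural cell markers, led by Acta2, was 147, 126, 130.3 and 102 in Ctrl, 145, 188, 158 and 137 in Model and 234, 263, 181 and 128 in YHY. The group means were 126 ± 18.4, 157 ± 22.6 and 202 ± 59.9 CPM, with overlap: YHY 4 was the lowest YHY mouse here. YHY 4 was the highest mouse for Malat1 and, with TMM but not with library size alone or nuclear-encoded counts, for Neat1. Pdgfra (28.6, 48.0 and 73.8 CPM) and Pdgfrb (27.6, 39.5 and 46.5 CPM) rose in YHY against Ctrl (log2 fold 1.37 ± 0.28, adjusted P = 0.00071, and 0.75 ± 0.17, adjusted P = 0.0016), the latter call lost with library size alone. In Model against Ctrl their calls (adjusted P = 0.042 and 0.025, log2 fold 0.75 and 0.51) were lost with library size alone and without any of the Ctrl mice, Model 2 or Model 3, and for Pdgfra also without Model 1. Acta2 (0.13) and Col1a1 (−0.52) were not called there, nor were they in YHY against Ctrl (0.20 and 0.24). What this list adds to the levels of the pair was not tested. Summed CPM of 6 macrophage and lymphocyte markers, led by Cd68, was 17.8, 10.7, 14.8 and 14.2 in Ctrl, 15.2, 14.7, 21.1 and 22.6 in Model and 30.8, 43.1, 23.7 and 18.0 in YHY. Of 4 tested, Cd68 rose in Model (log2 fold 1.05 ± 0.28, adjusted P = 0.0073), a call lost with library size alone, while Ptprc (−0.19), Cd79a (−0.08) and Adgre1 (0.02) were not called. What this sum adds to the levels of the 4 long non-coding RNAs was not tested.

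The other lists are given as group means of their sums. Podocyte markers (5, led by Podxl) averaged 129 ± 18.3, 154 ± 65.7 and 107 ± 36.2 CPM in Ctrl, Model and YHY. Of these Nphs1 (log2 fold 1.86 ± 0.25, adjusted P = 5.4e-05) and Synpo (log2 fold 0.53 ± 0.20, adjusted P = 0.043) rose in Model by edgeR. Podxl was at −0.36 and was not called. The Model mean of the podocyte sum leaned on Model 1, at 250 CPM beside 126, 142 and 100 CPM in Model 2 to Model 4. Endothelial markers (4, led by Emcn) averaged 142 ± 26.8, 145 ± 21.3 and 147 ± 51.3 CPM. Loop and distal tubule markers (4, led by Slc12a1) averaged 1922 ± 452, 1327 ± 160 and 1642 ± 414 CPM. Within that sum Umod fell in Model (log2 fold −2.86 ± 0.38, adjusted P = 5.4e-05), Slc12a3 rose (log2 fold 1.33 ± 0.22, adjusted P = 0.00026) and Slc12a1 was at −0.05. Pvalb, of the same sum, fell in YHY against Model (log2 fold −1.59 ± 0.36, adjusted P = 0.010, edgeR quasi-likelihood). Globin genes (4, led by Hba-a1) averaged 449.5 ± 161, 366 ± 101 and 662 ± 324 CPM. Among them Hbb-bs fell in Model (log2 fold −1.46 ± 0.36, adjusted P = 0.0050). Hbb-bt fell (log2 fold −1.17 ± 0.38, adjusted P = 0.023), a call lost with nuclear-encoded counts and without Ctrl 4, Model 2, Model 3 or Model 4. Hba-a2 went the other way (log2 fold 0.70 ± 0.26, adjusted P = 0.045). That call was lost with library size alone, with 9 mice and without Ctrl 1, Ctrl 2, Ctrl 3 or any Model mouse. Under treatment Hbb-bs rose against Model (log2 fold 1.29 ± 0.36, adjusted P = 0.028, edgeR quasi-likelihood). Fat markers (4, led by Cidec) averaged 0.382, 1.38 and 0.733 CPM, and Adipoq, Plin1 and Lep had at most 10, 4 and 16 reads in any mouse. Adrenal cortex markers (4, led by Star) averaged 1.77, 4.30 and 3.62 CPM, and the defining Cyp11b1, Cyp11a1 and Cyp21a1 had at most 4, 8 and 2 reads in any mouse.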

How the data were processed

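Per the labels, mRNA of 12 kidneys was captured on oligo(dT) (RIN of at least 7) and sequenced on Illumina instruments, 4 mice per group. The count values are raw reads per gene as the authors deposited them. The submitters' processing notes name FastQC 0.11.9, Trimmomatic 0.39, HISAT2 2.2.1, SAMtools 1.12, featureCounts 2.0.1 (Subread), DESeq2 1.34.0, R 4.1.2 and the builds GRCm39 and mm39, without their roles. The signal values in the authors' deposited comparisons are group means of counts divided by a factor per library. They were used only to see that these means were made from Ctrl 1, 3 and 4, Model 2, 3 and 4, and YHY 1, 2 and 3, and the 12 per-mouse columns and test results held there were not used.

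All 12 mice entered 1 edgeR 4.0.16 quasi-likelihood fit with limma 3.58.1 in R 4.3.3 (TMM, filterByExpr with a minimum count of 10, Benjamini-Hochberg, adjusted P under 0.05, no fold limit), which tested 17431 genes. DESeq2 1.42.0 was run beside it. Libraries held 24415658 to 33276634 counts. Squared differences between mice of a group were 17.3 to 139 times those of counting error alone (chi-square per degree of freedom, 18 pairs). This was taken on raw counts, with mitochondrial transcripts included. Tables were read with data.table (version 1.17.8), and Python 3.11.15 with NumPy 2.4.6, SciPy 1.17.1, pandas 2.3.3 and Matplotlib 3.10.9 was used for sequences and plots. Alternatives were library size alone, nuclear-encoded counts, upper-quartile scaling, TMM without mitochondrial genes, no filter, at least 10 counts in every mouse, a replicate block, only the 8 mice compared, the 9 mice of the authors' means, and leaving out each mouse.

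The members and the 9 gene lists were chosen with earlier results of these data known. Genes named are the members, tested neighbours within 250 kb, the 5 genes nearest in pattern with a mean count of at least 100, and from each list up to 4 genes with the smallest adjusted P in each direction and comparison and those whose role defines the list. Marker genes, and those singled out within the rule, were chosen after their values were seen. Snhg7, Papd5 and Cars1 are not in the file, of which the last 2 are other names of the listed Tent4b and Cars.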

Additional observations from a re-analysis of the deposited data

Results flagged for a closer look

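Of 48 checks of groups of 4 mice with Dixon's test, 4 set a mouse apart from the other 3, where chance flags about 1 in 20 groups. Ctrl 2 had a mitochondrial share of 22.7% (the others at most 18.6%), 29632700 total counts (the others 32677700 to 33276600) and a sum of endothelial markers of 101.9 CPM (the others 151 to 160). YHY 2 had a mitochondrial share of 64.6% (the others at most 54.6%). The members' levels in these 2 mice were not set apart by the same test. Whether the handling of the tissue or the animals lay behind these values was not tested.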

How the results depend on the processing

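The sign of every fold of Malat1, Neat1 and Meg3 was the same under all alternatives. Of 261 member fold values 252 were within 1 SD of the reported value, and of 132 gene counts 116 were within 1.5 times. The values below moved, and the cause was not tested.

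With nuclear-encoded counts the log2 fold was 1.48 for Neat1 in Model against Ctrl. It was, for YHY against Ctrl, 2.53 for Malat1, 2.37 for Neat1 and 3.37 for Kcnq1ot1. Genes higher and lower were then 5555 and 1609 for Model against Ctrl, 1509 and 830 for treatment in db/db, and 7406 and 2140 for YHY against Ctrl. With library size alone the log2 fold was 0.67 for Malat1 and 0.69 for Neat1 in Model against Ctrl and, for YHY against Ctrl, 1.64, 1.48 and, for Kcnq1ot1, 2.45. Genes higher and lower were then 1547 and 5667, and 491 and 686, with 2365 higher in YHY against Ctrl. With only the 8 mice compared, 692 genes were lower in YHY against Model.

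Leaving out each mouse gave 419 to 1045 genes higher and 727 to 1678 lower in YHY against Model. The Kcnq1ot1 fold there ran from −0.18 to 0.29, and was −0.09 with 9 mice.

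Among named genes called in at least 1 of the fits compared, signs turned in YHY against Ctrl with nuclear-encoded counts for Hnrnpk (0.0365), Hnrnpc (0.0233), Tssc4 (0.438) and Frmd8 (0.0352), and with library size alone for Exosc10 (−0.0322) and Tug1 (−0.0638). In Model against Ctrl they turned with library size alone for Ewsr1 (−0.0238), Zcchc8 (−0.0523) and Tssc4 (−0.0352). Folds of genes that were not called changed sign in further cases.

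Mice share replicate numbers, and the labels give no pairing. Deviations of same-numbered mice correlated from −0.17 to 0.12. Of 8 mice in each comparison, 3, 1 and 3 correlated best with their own number, in the order above. With a replicate block, genes higher and lower were 3212 and 3077, 793 and 1127, and 4259 and 4165, and the folds of Malat1, Neat1, Kcnq1ot1 and Meg3 were 1.10, 1.13, 2.80 and 2.17 in Model against Ctrl, 0.97, 0.78, 0.08 and 0.67 for treatment in db/db, and 2.07, 1.91, 2.88 and 2.84 for YHY against Ctrl.

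With 4 mice per group and libraries whose mitochondrial share differs by group, sizes depend on the scaling. Meg3 rests on few reads and has no value under at least 10 counts in every mouse.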
